A study of Mus musculus with 2744 samples.

Results

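Cells sorted for bright eGFP on Day 6 of a differentiation of mouse embryonic stem cells into motor neurons (labelled eGFP++) were compared with cells taken on Day 4 of the same differentiation. The members were chosen by label: every plate whose titles carry eGFP++ and every plate whose sampling day is Day 4, with a cell kept when 500 or more genes had a read. This gave 606 cells on 9 plates, of 2448 kept cells on 35 plates in the whole series. The eGFP++ group held 94, 95 and 94 kept cells on 3 plates of the main experiment (RPI46, RPI47 and RPI9) and 39 on 1 plate of the pilot experiment (TM014). The Day 4 group held 85, 91 and 51 on 3 main plates (RPI29, RPI30 and RPI45) and 24 and 33 on 2 pilot plates (TM013 and TM015), and values per plate follow this order below. Of the 696 wells of both groups 90 fell under the limit, with 5 cells less than 100 genes above it and 7 wells less than 100 genes below it. Both groups came from embryoid bodies dissociated with papain, were sorted 1 cell to a well, and were amplified in a modified CEL-seq protocol, in which each cell's messenger RNA is barcoded and amplified by transcription in vitro. No treatment, genotype or cell line distinguishes them in the labels, which give only the day, the experiment and the eGFP label. The labels do not name the gene whose promoter drives eGFP. They also do not say that plates of 1 experiment came from separate differentiations, so p-values over plates measure the spread between plates and are too small as a measure of the spread between differentiations.

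Spinal motor neurons are the cholinergic neurons that carry commands out of the cord to muscle. In the embryo they arise from dividing ventral progenitors, which hold Olig2 and Sox factors, under retinoic acid and Hedgehog signals, the agents on which stem cell protocols of this kind rely. As a progenitor leaves the cell cycle it switches on the LIM-homeodomain factors Isl1 and Lhx3, which together drive the motor neuron program, then the genes for acetylcholine use, the axonal cytoskeleton and synaptic release. The comparison spans more than that step, since Day 4 cells held little Olig2 and still had reads of the pluripotency factor Pou5f1. On 1 side are Day 4 cells, many with reads of dividing-cell genes, and on the other sorted reporter-positive cells.

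Depth did not differ by a test over both experiments, but the groups lay apart in the pilot experiment and several measures moved with single plates. A plate sum held 10362454 to 36403175 gene reads. The median cell had a read of 1746 to 3396 genes on the main eGFP++ plates and 2674 to 3378 on the main Day 4 plates, and in the pilot experiment 2273 on the eGFP++ plate against 1292 and 1409 on the Day 4 plates (exact permutation of plate labels within experiments, two-sided, 60 arrangements, p = 0.55). Spike-in RNA took a median of 7.90 to 18.4% of a cell's gene and spike-in reads on the eGFP++ plates and 4.81 to 10.5% on the Day 4 plates (p = 0.25). The share of wells left out was 1.04 to 2.50% for eGFP++ and 5.21 to 46.9% for Day 4 (p = 0.0833). The median cell had 139400 to 220200 gene reads on the main eGFP++ plates and 98740 to 248100 on the main Day 4 plates. In the pilot experiment it had 403900 on the eGFP++ plate against 533300 and 919100 (exact permutation, p = 0.533). The smallest p this design allows is 0.0167. The statistic averages the 2 experiments, and detected genes moved in opposite directions in them, so these p-values do not show that depth was alike. Plate RPI45 of Day 4 lost 46.9% of its wells, and plate RPI9 of eGFP++ had the fewest genes and the highest spike-in share of the main plates, so the leading counts are also given without both. The part of these measures in the results was not tested. The reads carry no molecular identifiers, so all intervals and floors cover counting error only.

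The reporter matched the sort. Egfp stood at 9161, 8652 and 12533 CPM (the reads of a gene scaled to a fixed library size, with TMM factors) on the 3 main eGFP++ plates and at 4674 CPM on the pilot plate. On Day 4 it stood at 1.32, 9.46 and 1.65 CPM in the main and at 75.7 and 6.02 CPM in the pilot experiment. After each cell was thinned to 10000 reads, no Egfp read was left in 1 main and 1 pilot eGFP++ cell. Egfp was the sort criterion, so this is a check of the labels and no finding.

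The Day 4 cells held reads of progenitor and dividing-cell genes and little Olig2. Sox2, a factor of neural and pluripotent progenitors, stood at 72.6, 53.95 and 114.9 CPM on the main plates and 85.6 and 163.5 CPM on the pilot ones. A read of Top2a, a topoisomerase of dividing cells, was found in 60.6% of main Day 4 cells (95% Wilson interval 54.1 to 66.8) and in 49.1% of pilot ones (36.6 to 61.7), after thinning. Olig2, the defining factor of motor neuron progenitors, stood at 5.72, 11.9 and 2.87 CPM in the main experiment and at 0.0838 and 0 CPM in the pilot experiment. Pax6, a factor of the ventral progenitor list that dorsal progenitors also hold, stood at 77.3, 118.8 and 189.2 CPM on the main plates and at 1.05 and 47.2 CPM on the pilot ones. Pou5f1, a pluripotency factor, had 8.33 to 36.7 CPM on the Day 4 plates. They are called Day 4 cells here.

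Across the transcriptome, 862 of 11784 tested genes (7.32%) differed between eGFP++ and Day 4, with 3.89% of the tested genes higher in eGFP++ and 3.43% lower. Each count of called list members below is to be read beside these shares. A gene was called when its adjusted p was under 0.05 (edgeR quasi-likelihood test over plate sums with experiment as a term, Benjamini-Hochberg over all genes tested) and its mean log2 CPM differed in the same direction within both experiments. With 1 sum per group and experiment, which takes the experiment as the replicate and leaves 1 residual degree of freedom, 1.16% of 13052 genes rose and 0.513% fell. Both fits called 130 genes as risen and 56 as fallen, and "both fits" below refers to these. The plot of each gene's change in the 2 experiments shows where the calls lie. Of the 11784 tested genes, 4235 were higher and 3619 lower in eGFP++ in both experiments. For 24.5% of the tested genes (1627 higher and 1259 lower) the plates of the groups did not overlap within either experiment. Both traits are thus common among genes that were not called. The size of the change differed between the experiments for 3.54% of the genes by the interaction of group and experiment. Without plates RPI45 and RPI9, 120 rose and 67 fell.

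**Figure D1:**
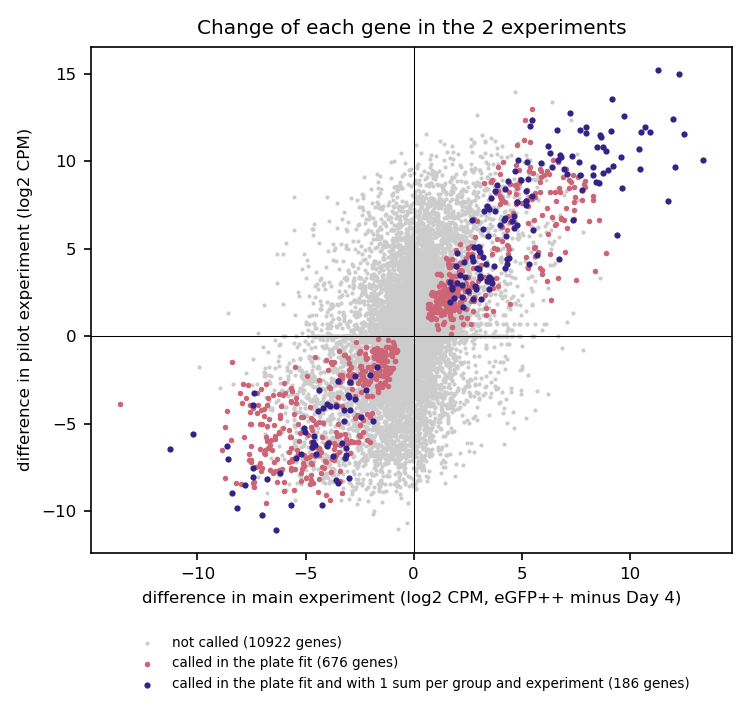
Difference of mean log2 CPM between Day 6 eGFP++ and Day 4 in the main (x axis) and pilot experiment (y axis), 1 point per tested gene. The 862 called genes lie in the upper right and lower left, since a call requires the same direction in both experiments. Dark points are the genes called in both fits (130 risen and 56 fallen).

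The motor neuron factors rose from levels at or near 0. Isl1, the LIM-homeodomain factor that marks new motor neurons, had 394.5, 402.1 and 415.9 CPM on the main eGFP++ plates and 663 CPM on the pilot plate. The 3 main Day 4 plates had no Isl1 read and the pilot plates 1 read in all, at 0.0419 CPM on plate TM013. In the main experiment Isl1 was thus at least 6367-fold higher in eGFP++ (floor of 3 reads over the group), and in the pilot experiment the ratio of reads had a 95% interval of 6772 to 1491000 (edgeR adjusted p = 3.34e-06). The lowest eGFP++ plate lay far above the highest Day 4 plate. Lhx3, its partner in the motor neuron program, had 312.5, 345.01 and 275.7 CPM on the main and 320.8 CPM on the pilot eGFP++ plates, against 10.1, 1.79 and 0 CPM in the main and 0 CPM on both pilot Day 4 plates. It rose by 8.07 ± 1.80 (standard error, SE) on the log2 scale (edgeR adjusted p = 0.0251). Isl2 and Lhx4, related LIM factors, also rose (edgeR adjusted p = 0.0146 and 0.015), with 34.2 to 64.9 CPM and 11.3 to 24.5 CPM on the eGFP++ plates.

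Of the 14 motor neuron transcription factors tested, 5 rose and none fell by edgeR (6 and 0 at an unadjusted p under 0.05; DESeq2 called 6 up and 1 down), 2 of them in both fits. Their median fitted log2 change was 3.86, beside 0.018 over all genes tested. With genes under 3 reads held at 3, it was 2.104 with the main and 7.51 with the pilot plates, against 0.015 and -0.044 over all genes. Mnx1, the homeodomain factor used as a reporter locus in many motor neuron lines, had 32.1 to 54.7 CPM on the main and 21.3 CPM on the pilot eGFP++ plates and 0 to 13.4 CPM on the Day 4 plates, and did not pass (edgeR adjusted p = 0.271). Foxp1, a factor of limb-innervating columns, did not pass either, at 49.4 to 104.3 CPM against 13.4 to 110.1 CPM, with overlapping groups. Without plates RPI45 and RPI9 the count of risen factors was 1.

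Genes for acetylcholine use rose as well. Slc18a3, the vesicular acetylcholine transporter, had 322.3, 242.8 and 209.4 CPM on the main eGFP++ plates and 332.4 CPM on the pilot plate. It was at 0 on 4 of 5 Day 4 plates and at 0.435 CPM on plate RPI45, and in the pilot experiment the eGFP++ level was at least 6305-fold higher. Its fitted log2 change was 12.10 ± 1.26 (SE; edgeR adjusted p = 0.00103). Chat, the enzyme that makes acetylcholine, had 17.04 to 30.9 CPM against 0 to 0.597 CPM and passed in the plate fit (edgeR adjusted p = 0.0387) but not with 1 sum per group and experiment (edgeR adjusted p = 0.341). Slc10a4, a vesicular protein of cholinergic neurons, had 370.7 to 645 CPM against 0 on 4 of 5 Day 4 plates and 6.36 CPM on plate TM015. Prph, the peripheral neuron intermediate filament peripherin, and Ret, the GDNF receptor kinase, rose too (edgeR adjusted p = 0.0384 for each in the plate fit). Of 13 cholinergic genes, 5 rose and 0 fell (8 and 0 at an unadjusted p under 0.05; DESeq2 7 and 0), 2 in both fits. Chrna4, a nicotinic receptor subunit, had 158.6 to 305.5 CPM against 0.0419 to 26.5 CPM and missed the threshold (edgeR adjusted p = 0.0543). Its groups did not overlap, which within both experiments held for 24.5% of all tested genes. In sums over cells, fewer cells with a gene and less RNA of it per cell cannot be told apart.

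**Figure D2:**
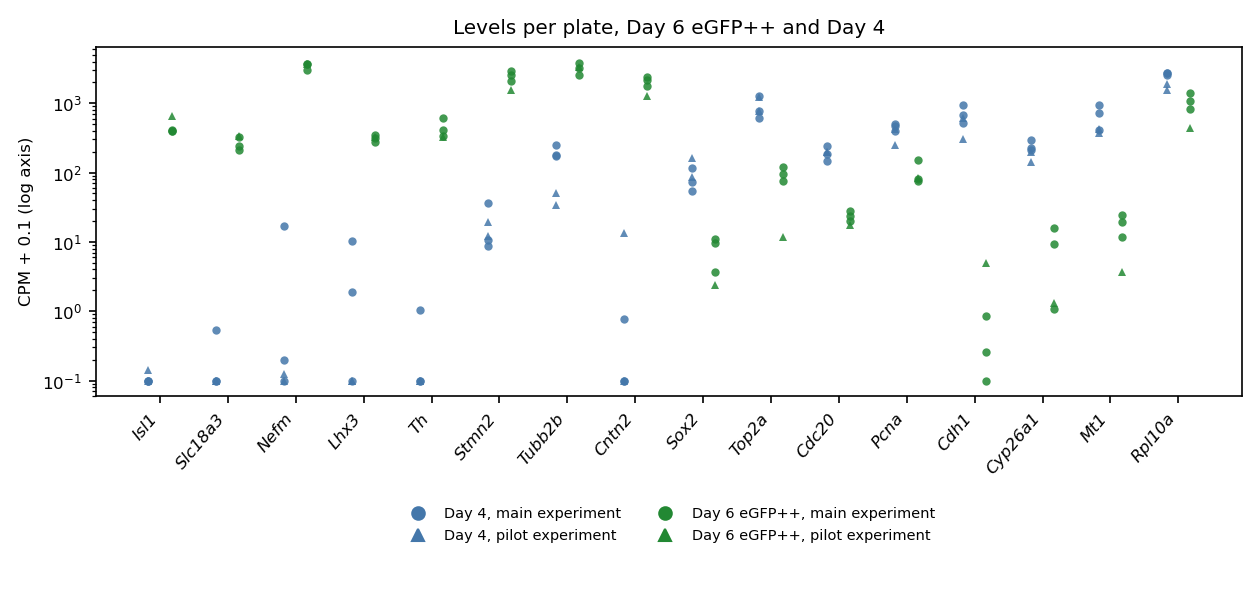
Levels of 16 genes on each plate in CPM plus 0.1 on a log axis, with circles for main and triangles for pilot plates. Isl1, Slc18a3 and Nefm lie below 17 CPM on every Day 4 plate and at or above 209.4 CPM on every eGFP++ plate, while Cdh1, Cyp26a1 and Mt1 lie below 25 CPM on every eGFP++ plate.

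Cell by cell, Isl1, Slc18a3 and Nefm were common in eGFP++ cells and almost absent on Day 4, and other motor neuron markers were less common. After thinning to 10000 reads, Isl1 had a read in 53.2% of main eGFP++ cells (95% Wilson interval 47.4 to 58.9) and in 33.3% of pilot ones (20.6 to 49.02). No main or pilot Day 4 cell had an Isl1 read, which at this depth allows shares of cells with a read of up to 1.33% and 5.26% (3 cells of the total). Nefm, a neurofilament of large axons, had a read in 74.5 to 93.6% of cells on the main eGFP++ plates and in 58.97% on the pilot plate, against 0 to 3.03% on the Day 4 plates. Slc18a3 reached 44.7 to 69.1% and 46.2%, and 0% on every Day 4 plate. Lhx3 had a read in 46.8% of main and 28.2% of pilot eGFP++ cells, Isl2 in 16.3% and 10.3%, and Chat in 13.1% and 10.3%. Mnx1 had a read in 17.7% and 2.56% of them, against 1.33% and 1.75% of Day 4 cells. Its share did not pass (exact permutation, adjusted p = 0.0952). At full depth the Isl1 share was 68.2% and 46.2% in main and pilot eGFP++ cells, and 0% and 1.75% on Day 4. The share of cells with a read differed for 16 of 40 markers (exact permutation of plates within experiments, Benjamini-Hochberg over the 40, adjusted p = 0.0417 for each; the unadjusted p of each, 0.0167, is the smallest the arrangements allow).

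Isl1, Slc18a3 and Nefm did not mark the same cells in full. All 3 had a read in 26.2% of main and 7.69% of pilot eGFP++ cells, and none of them in 2.48% and 15.4%. In the unselected Day 6 cells, 5.65% and 8.45% had all 3 and 46.6% and 49.3% had none. Among main eGFP++ cells with an Isl1 read, 58% had a Slc18a3 read, and among those without, 54.5%. Lhx3 had a read in 54% of the Isl1 cells of the main and 30.8% of those of the pilot eGFP++ group. Many transcripts have no read at this depth, so a cell without a read is not a cell without the gene.

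**Figure D3:**
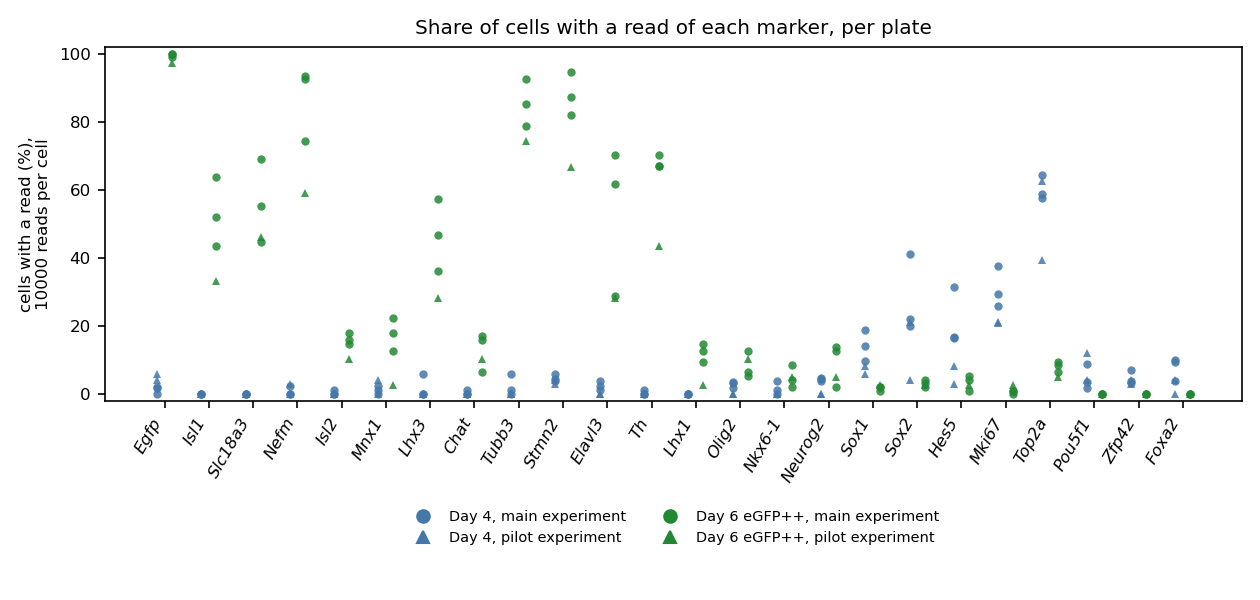
Share of cells with a read of each marker on each plate after thinning to 10000 reads per cell (y axis in percent), with circles for main and triangles for pilot plates. Isl1 spans 33.3 to 63.8% of eGFP++ cells and 0% of Day 4 cells, and Top2a spans 5.13 to 9.57% against 39.4 to 64.4%. At full depth, not drawn, Top2a had a read in 13.1% of main and 51.3% of pilot eGFP++ cells. On Day 4 its full-depth shares were 76.7% and 68.4%.

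The pan-neuronal cytoskeleton was the list with the most called members. Of 26 genes, 21 rose and none fell, 18 of them in both fits. At an unadjusted p under 0.05, 24 rose and 0 fell, and DESeq2 called 21 and 0. In both experiments 25 of the 26 were higher, as were 4235 of all 11784 tested genes. The median fitted log2 change was 5.11, and with genes held at the floor 4.58 (main) and 5.62 (pilot). Stmn2, a tubulin-binding stathmin of growing axons, had 2127, 2554 and 2959 CPM on the main and 1549 CPM on the pilot eGFP++ plates, against 35.9, 8.76 and 10.6 CPM on the main and 12 to 19.3 CPM on the pilot Day 4 plates. It rose by 6.96 ± 0.50 (SE; edgeR adjusted p = 0.000151) with groups far apart. Gap43, found in growth cones, had 3262 to 5892 CPM in eGFP++ against 0 to 7.48 CPM (edgeR adjusted p = 0.00328), and Stmn4, another stathmin, had 303.3 to 2292 CPM against 0 to 0.947 CPM. Map1b, a microtubule-associated protein, rose by 3.49 ± 0.41 (SE; edgeR adjusted p = 0.00167). Nefm had 3734, 3652 and 3022 CPM on the main and 3652 CPM on the pilot eGFP++ plates, against 16.6, 0.0995 and 0 CPM and 0 and 0.0228 CPM (edgeR adjusted p = 0.014). Tubb3, the neuronal beta-tubulin, did not overlap either, at 470.9 to 799.7 CPM against 0 to 34.02 CPM, and missed the threshold (edgeR adjusted p = 0.0509). Without plates RPI45 and RPI9, 10 of the list rose.

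Secretory, channel and receptor genes followed with fewer calls. Of 21 synaptic vesicle and secretory genes, 9 rose and none fell by edgeR (18 and 0 at an unadjusted p under 0.05; DESeq2 17 and 0), 4 in both fits. Syt11, a synaptotagmin, rose by 4.97 ± 0.53 and Scg5, a chaperone of peptide granules, by 5.06 ± 0.62 (SE; edgeR adjusted p = 0.00113 and 0.00181). Scg2, a granin of dense-core vesicles, had no read on any Day 4 plate and was at least 1409-fold higher in the main and 2285-fold in the pilot experiment. Of 16 ion channel genes 7 rose and 0 fell (10 and 0 unadjusted; DESeq2 11 and 0), none in both fits, among them the sodium channel subunits Scn3a and Scn3b and the potassium channel Kcnd3. Of 9 receptor and transporter genes 4 rose and 0 fell (4 and 0 unadjusted; DESeq2 6 and 1), none in both fits. Gria2, an AMPA receptor subunit, had 17.3 to 36.6 CPM and was at 0 on every Day 4 plate.

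Axon guidance, transport and RNA-binding genes rose in part. Of 25 guidance and adhesion genes 9 rose and 0 fell (11 and 0 unadjusted; DESeq2 11 and 0), 4 in both fits. Cntn2, the axonal adhesion molecule TAG-1, had 1792, 2398 and 2134 CPM on the main and 1262 CPM on the pilot eGFP++ plates, against 0 to 0.659 CPM on the main Day 4 plates and 0 and 13.2 CPM on the pilot ones. Slit2, a repellent ligand, had 732 to 1308 CPM against 0.299 to 63.1 CPM (log2 change 8.05 ± 1.14 SE; edgeR adjusted p = 0.00353). The receptors Nrp1 and Dcc rose as well (edgeR adjusted p = 0.0051 and 0.016), while Efna5, an ephrin, overlapped at 14.7 to 106.6 CPM against 24.7 to 55.6 CPM. Of 17 axonal motor genes 6 rose, with 3 in both fits, and 0 fell (10 and 0 unadjusted; DESeq2 10 and 0). Kif5c, a neuronal kinesin, rose by 4.99 ± 0.67 (SE; edgeR adjusted p = 0.0028), whereas Kif5b, the kinesin of all cells, had 143.4 to 311.2 CPM against 88.6 to 217.8 CPM (edgeR adjusted p = 0.506). Of 17 neuronal RNA-binding genes 5 rose and 0 fell (10 and 1 unadjusted; DESeq2 6 and 1), all 5 in both fits, among them Rbfox3, Celf6, Elavl3 and Elavl2. Of 11 progenitor RNA-binding and timing genes 0 rose and 3 fell (0 and 5 unadjusted; DESeq2 0 and 5). These were Ptbp1, which represses neuronal exons and fell by 2.00 ± 0.29 (SE; edgeR adjusted p = 0.00383), Igf2bp1 and Trim71, none in both fits.

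Outside the lists, several of the genes with the largest rises encode secreted or signalling proteins. Under the rule for the 12 largest rises in both fits, Isl1 stood first, followed by Ntf3, Rgs7, Sst and Scg2. Ntf3, a neurotrophin, had 100.8, 131.3 and 202.5 CPM on the main and 164.2 CPM on the pilot eGFP++ plates and no read on Day 4, at least 2148-fold and 3113-fold higher in main and pilot. Rgs7, a regulator of G protein signalling, was likewise without a read on Day 4, at least 711-fold and 3425-fold higher. Sst, the peptide somatostatin, had a range of 75.1 to 117.7 CPM on 3 eGFP++ plates, a higher level on plate RPI9, and no Day 4 read. Sncg, gamma-synuclein, and Ecel1, a membrane peptidase, completed the 12 with Stmn4, Slc18a3, Gap43, Slc10a4 and Cntn2.

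**Figure D4:**
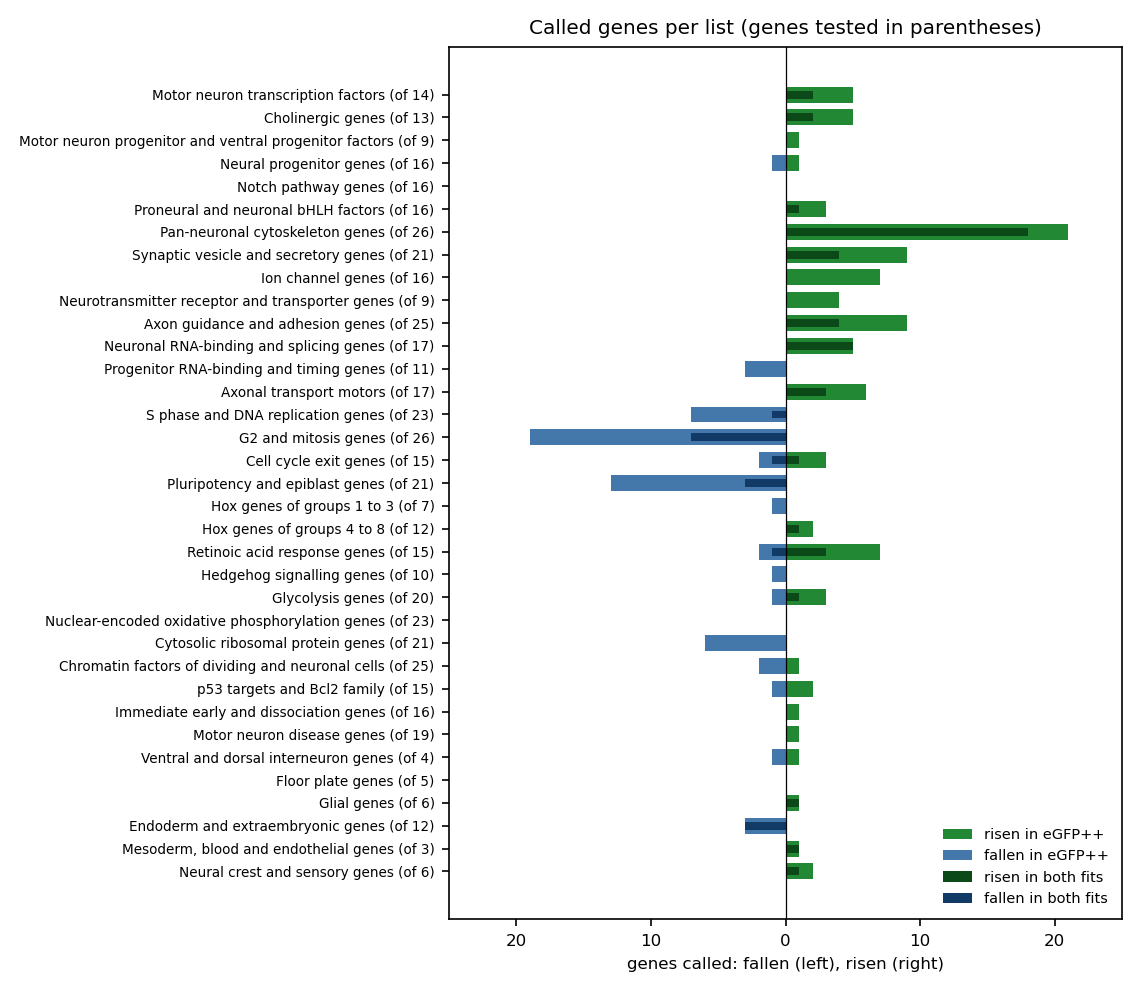
Called genes in each list, with risen genes to the right and fallen genes to the left (x axis, number of genes) and those called in both fits as dark inner bars. The pan-neuronal cytoskeleton (21 of 26 risen) and the G2 and mitosis list (19 of 26 fallen) hold the most calls.

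Genes of dividing cells were lower in eGFP++. All 26 G2 and mitosis genes were lower in eGFP++ in both experiments, as were 3619 of all 11784 tested genes. Of the 26, 19 passed as fallen and 0 as risen, 7 of them in both fits. At an unadjusted p under 0.05, 25 fell and 0 rose, and DESeq2 called 23 and 0. The median fitted log2 change was -3.41, and with genes held at the floor -2.96 (main) and -3.84 (pilot). The summed level of the list was 404.2 to 819 CPM on the main and 509.7 CPM on the pilot eGFP++ plates, against 4546 to 5533 CPM and 5321 to 5583 CPM on Day 4. Cdc20, an activator of the anaphase-promoting complex, had 19.7, 28.2 and 23.5 CPM on the main and 17.3 CPM on the pilot eGFP++ plates. On Day 4 it had 184.5, 148.3 and 238.3 CPM and 196.5 and 197.7 CPM, so it fell by 3.15 ± 0.33 (SE; edgeR adjusted p = 0.00108). Tacc3 of the spindle, Cenpa, the centromeric histone, and Plk1, a mitotic kinase, fell too, with log2 changes of -2.94 ± 0.39, -2.82 ± 0.40 and -3.09 ± 0.45 (SE). Top2a had 120, 75.3 and 96.5 CPM on the main and 11.6 CPM on the pilot eGFP++ plates against 612 to 1280 CPM on Day 4 (edgeR adjusted p = 0.00591). Cdk1, the mitotic kinase, did not pass, at 0.291 to 37.1 CPM against 122.9 to 195.6 CPM without overlap (edgeR adjusted p = 0.063). Without plates RPI45 and RPI9, 6 of the 26 fell.

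The promoters of such genes are known for paired CCAAT boxes and the cell cycle homology region, whose core is TTTGAA. The 250 bases upstream of the RefSeq start were searched on both strands for TTTGAA and CCAAT, where adjoining matches can share a base. Of 26 list members 22 had a RefSeq promoter (GRCm38.p6), and 8 of the 22 (36.4%) held TTTGAA and 19 (86.4%) CCAAT. Of all 27025 genes with a RefSeq promoter, 18.3% held TTTGAA and 37.5% CCAAT in this window. Both motifs were held by 8 of the 22 members (36.4%) and by 7.34% of all genes. Among the 16 called members with a promoter 6 held TTTGAA, and among the 6 not called 2 did. The upstream windows of the 3 called members with TTTGAA and the smallest adjusted p are shown to let the motifs be seen beside the fall. They lie as follows: Cdc20 at chr4:118437344-118437593 on the minus strand, Hmgb2 at chr8:57511593-57511842 on the plus strand, Top2a at chr11:99024190-99024439 on the minus strand. Capitals mark TTTGAA and CCAAT with their reverse complements, TTCAAA and ATTGG, 5′ to 3′ on the gene's strand, and a match is a description of the letters only.
Cdc20: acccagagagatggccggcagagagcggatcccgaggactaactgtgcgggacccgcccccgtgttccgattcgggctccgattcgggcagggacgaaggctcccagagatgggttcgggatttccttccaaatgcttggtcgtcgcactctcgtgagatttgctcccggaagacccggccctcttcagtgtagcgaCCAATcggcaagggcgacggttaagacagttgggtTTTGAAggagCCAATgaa
Hmgb2: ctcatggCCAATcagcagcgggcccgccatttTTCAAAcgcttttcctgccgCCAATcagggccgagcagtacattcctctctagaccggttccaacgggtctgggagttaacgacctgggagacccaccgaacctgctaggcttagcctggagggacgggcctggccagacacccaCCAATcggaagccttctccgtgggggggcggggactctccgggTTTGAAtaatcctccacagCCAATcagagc
Top2a: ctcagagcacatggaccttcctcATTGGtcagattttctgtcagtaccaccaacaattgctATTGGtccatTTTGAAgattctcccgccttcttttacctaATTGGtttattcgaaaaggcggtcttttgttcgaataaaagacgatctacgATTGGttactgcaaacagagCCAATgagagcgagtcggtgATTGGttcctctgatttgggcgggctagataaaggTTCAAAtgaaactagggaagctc
In Cdc20 TTTGAA starts 18 bases before the RefSeq start, between CCAAT boxes 53 and 8 bases before it. Hmgb2, a chromatin protein of proliferating cells, has TTTGAA 30 bases before the start, TTCAAA further up and 4 CCAAT boxes. Top2a has ATTGG at 5 places and CCAAT at 1, with TTCAAA 23 bases before the start and TTTGAA further up.

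Some DNA replication genes fell. Of 23 S phase genes 7 fell and 0 rose, 1 in both fits. At an unadjusted p under 0.05, 17 fell and 0 rose, and DESeq2 called 14 and 0. In both experiments 18 of the 23 were lower, as were 3619 of all 11784 tested genes. Pcna, the sliding clamp of DNA polymerase, had 80.3, 74.7 and 153.8 CPM on the main and 83.6 CPM on the pilot eGFP++ plates against 400.6, 509.3 and 470.3 CPM and 250.6 and 421.5 CPM (log2 change -2.11 ± 0.32 SE; edgeR adjusted p = 0.00453). Dut, which removes dUTP, fell by 3.26 ± 0.43 and Mcm5 of the replicative helicase by 3.96 ± 0.69 (SE; edgeR adjusted p = 0.00256 and 0.0091). Among 15 genes of cell cycle exit, 3 rose and 2 fell. Cdkn2d, an inhibitor of G1 cyclin kinases, had 151.9 to 242.9 CPM against 23.99 to 52.8 CPM, and Cdkn1a, the p21 inhibitor, 279.9 to 401.8 CPM in main and 67.7 CPM in pilot against 40.6 to 69.3 CPM, its lowest eGFP++ plate lying within the range of Day 4 over both experiments. The G1 cyclins Ccnd1 and Ccnd2 fell (edgeR adjusted p = 0.0202 and 0.00571).

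The 2 lists separated the groups cell by cell as well. After thinning, the median eGFP++ cell held reads of 17 to 20 of the 26 pan-neuronal genes on the main plates and of 14 on the pilot plate, and the median Day 4 cell 4 or 5 and 1 or 2. For the G2 and mitosis genes the medians were 0 or 1 in eGFP++ and 5 to 9 on Day 4 (exact permutation of plate medians within experiments, p = 0.0167 for each list, the smallest this design gives). Between 2.13 and 7.45% of the cells on an eGFP++ plate held 5 or more G2 and mitosis genes, against 58.3 to 77.8% on a Day 4 plate. The highest count in an eGFP++ cell was 23 of 26, on plate RPI46. Cells are not replicates here and the cells of a plate share their differentiation as far as labels say.

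**Figure D5:**
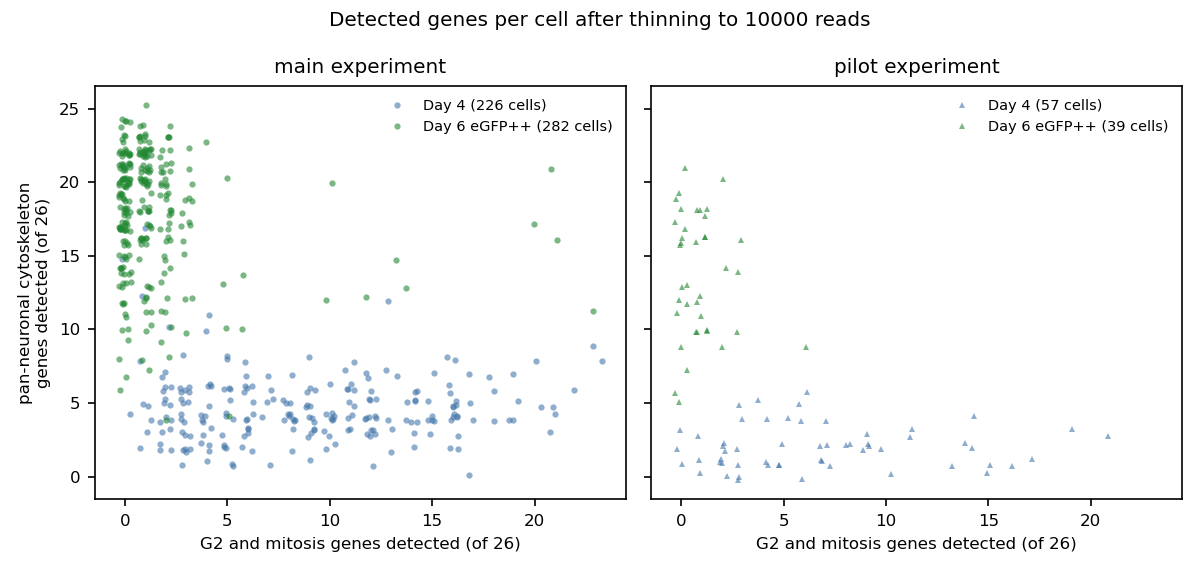
Number of G2 and mitosis genes (x axis, of 26) and pan-neuronal cytoskeleton genes (y axis, of 26) with a read in each cell after thinning to 10000 reads, with the main experiment left and the pilot experiment right; points are shifted by up to 0.3 to separate them. Most eGFP++ cells lie at the upper left and most Day 4 cells along the bottom, and a few eGFP++ cells lie to the right.

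Pluripotency and epiblast genes were lower in eGFP++. Of 21 tested, 13 fell and 0 rose (16 and 0 unadjusted; DESeq2 18 and 0), 3 in both fits, with a median fitted log2 change of -6.88. Cdh1, E-cadherin of epithelial and pluripotent cells, had 519, 947 and 677 CPM on the main and 607.5 and 308.97 CPM on the pilot Day 4 plates, against 0.741, 0 and 0.161 CPM and 4.79 CPM in eGFP++ (log2 change -9.42 ± 1.33 SE; edgeR adjusted p = 0.00353). Dppa5a, a marker of naive pluripotency, varied among Day 4 plates from 88.6 to 770.3 CPM and stood at 3.26 to 15.4 CPM in eGFP++. Sall4, a zinc finger factor of early embryonic cells, fell by 3.11 ± 0.47 (SE; edgeR adjusted p = 0.0045). Pou5f1 had no read on the main eGFP++ plates and 0.0647 CPM on the pilot plate, at least 344.4-fold lower than Day 4 in the main experiment. Without plates RPI45 and RPI9, 3 of the list fell.

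Of 16 neural progenitor genes 1 fell and 1 rose, neither in both fits (4 down and 3 up unadjusted; DESeq2 4 and 2), and 3.43% of all genes fell and 3.89% rose. Sox2 fell to 10.8, 3.61 and 9.66 CPM on the main and 2.26 CPM on the pilot eGFP++ plates (log2 change -3.94 ± 0.69 SE; edgeR adjusted p = 0.00945), and Cdh2, N-cadherin, rose by 1.66 ± 0.34. Sox1 had 1.02 to 6.68 CPM against 41.1 to 65.8 CPM in the main experiment, but 62.9 CPM against 1.80 and 39.4 CPM in the pilot experiment, and was not called. Once cells were thinned, its share of cells with a read was lower in eGFP++ in both experiments. The thinned shares were 1.77% against 15.04% (main) and 2.56% against 7.02% (pilot), and are among the 16 that differed (exact permutation, adjusted p = 0.0417). The thinned pilot eGFP++ share is 1 cell of 39. At full depth the Sox1 share was lower on main eGFP++ plates (2.83% against 32.6%). On pilot plates it was then higher in eGFP++ (15.4% against 12.3%), so the pilot direction depends on thinning. None of 16 Notch pathway genes passed in edgeR (3 up and 1 down at an unadjusted p under 0.05; DESeq2 called 3 and 1, voom 1 and 0). Hes5, a Notch target, ran opposite ways in the 2 experiments, at 3.70 to 88.5 against 93.5 to 513 CPM in main and 51.6 against 9.38 and 12.7 CPM in pilot. Of 16 proneural and neuronal factors 3 rose and 0 fell (5 and 0 unadjusted; DESeq2 4 and 0). These were Myt1l, Nhlh2 and Myt1, and Nhlh2, a neuronal bHLH factor, was called in both fits. Olig2 had 9.95 to 28.5 CPM in eGFP++ against 0 to 11.9 CPM and did not pass (edgeR adjusted p = 0.332). Its share of cells with a read was higher in eGFP++, at 8.16% against 3.10% (main) and 10.3% against 0% (pilot), and did pass (exact permutation, adjusted p = 0.0417).

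Retinoic acid and patterning genes changed in both directions. Of 15 retinoic acid response genes 7 rose and 2 fell, 3 and 1 in both fits, beside 3.89% risen and 3.43% fallen of all tested genes. The paralogous retinoic acid-degrading enzymes moved apart. Cyp26b1 went from 14.5 to 53.8 CPM on Day 4 to 428.2 to 1735 CPM in eGFP++ (log2 change 4.63 ± 0.47 SE; edgeR adjusted p = 0.00103). Cyp26a1, at 195.6 to 295.3 CPM on 4 Day 4 plates and lower on TM015, stood at 0.989 to 15.97 CPM and fell by 5.37 ± 0.85 (SE; edgeR adjusted p = 0.00587). Both were called in both fits. Stra8, a gene induced by retinoic acid in germ cells, had 678 to 2176 CPM on Day 4 and 0 to 0.139 CPM on the main but 66.7 CPM on the pilot eGFP++ plates (edgeR adjusted p = 0.0338).

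The Hox and Hedgehog lists had few calls, and over all tested genes 3.89% rose and 3.43% fell. Of 12 Hox genes of groups 4 to 8, 2 rose and 0 fell (8 and 0 unadjusted, and 6 and 0 by DESeq2). Hoxa5, of the cervical cord, had 555.5 to 996 CPM against 1.09 to 152.8 CPM and was called in both fits, and Hoxb5 rose by 1.59 ± 0.39 (SE; edgeR adjusted p = 0.038). Of 7 Hox genes of groups 1 to 3 only Hoxb1, a hindbrain gene, passed, as fallen; DESeq2 called 2 of them up and 1 down. Of 10 Hedgehog genes 1 fell and 0 rose (3 and 0 unadjusted; DESeq2 3 and 0): Gli1, the pathway's target and effector, with no read on the main eGFP++ plates.

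Among housekeeping programs, ribosomal protein genes were lower and respiratory genes showed no call. Of 21 ribosomal protein genes 20 were lower in both experiments, as were 3619 of all 11784 tested genes. By edgeR 6 of the 21 were called as fallen and 0 as risen, none in both fits. At an unadjusted p under 0.05, 15 fell and 0 rose, and DESeq2 called 9 and 0. Rpl10a had 828, 1071 and 1426 CPM on the main and 435.7 CPM on the pilot eGFP++ plates against 2737, 2767 and 2540 CPM and 1923 and 1573 CPM. It fell by 1.49 ± 0.23 (SE; edgeR adjusted p = 0.00528). Rps2 fell by 1.07 ± 0.18, Rpl3 by 0.78 ± 0.17 and Rpl13 by 0.77 ± 0.16. Genes of ribosomal proteins have many near-identical pseudogene copies, so the assignment of their reads is uncertain. Of 23 nuclear genes of oxidative phosphorylation edgeR called 0 (4 up and 0 down at an unadjusted p under 0.05; DESeq2 3 and 0, voom 0). Of 20 glycolysis genes 3 rose and 1 fell. Eno2, the neuronal enolase, had 572 to 1810.2 CPM in eGFP++ against 0 to 77.02 CPM and was called in both fits, while Slc2a1, the glucose transporter GLUT1, had 465.8 to 691.7 CPM against 1292 to 1819 CPM. Gapdh did not pass, at 814 to 1002 CPM against 1085 to 1606 CPM.

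The genes with the largest falls in both fits were of several kinds: Cdh1, Ung, Upp1, Ctgf, Mt2, Sparc, Lamb1, Sepp1, Dcdc2c, Mt1, Dppa5a and Cyp26a1. Upp1, uridine phosphorylase, went from 87.4 to 482 CPM to 0 to 1.21 CPM (edgeR adjusted p = 0.00181). The metallothioneins Mt1 and Mt2, zinc-binding proteins, stood at 371.8 to 951 CPM and 556 to 1074 CPM on Day 4 and at 3.56 to 24.5 CPM and 0 to 16.3 CPM in eGFP++. Ung, which removes uracil from DNA, had 79.1 to 230.1 CPM on Day 4 and 0 to 2.72 CPM in eGFP++.

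Markers of other cell types were uneven, with some at 0 and others high in eGFP++. Their counts of calls stand beside 3.89% risen and 3.43% fallen of all tested genes. The summed level of the 6 tested glial genes was 221.5 to 309.9 CPM on the main and 881.7 CPM on the pilot eGFP++ plates, against 42.6 to 54.9 CPM and 5.99 to 9.31 CPM on Day 4, and 1 of them rose. That gene was Mbp, the myelin basic protein, at 77.6, 78.2 and 88.9 CPM on the main and 285.8 CPM on the pilot eGFP++ plates against 3.39 to 16.9 CPM (log2 change 4.09 ± 0.69 SE; edgeR adjusted p = 0.00801, called in both fits). Sox9, a factor of glia and progenitors, had 103.8 to 559 CPM against 0 to 19.4 CPM without overlap and did not pass (edgeR adjusted p = 0.0551). Of the other glial markers, Gfap had no read on any of the 9 plates, Aldh1l1 had reads on 1 Day 4 plate only, and Sox10 had reads on eGFP++ plates RPI46 and TM014 only, at 39.1 and 31.8 CPM from 2.13 and 2.56% of their cells after thinning (levels of untested genes are unscaled). The part of such cells in the results was not tested.

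Of 4 tested interneuron genes 1 rose and 1 fell (2 and 2 unadjusted, and 2 and 2 by DESeq2), neither in both fits. Over all tested genes 3.89% rose and 3.43% fell. Lhx1, a factor of interneurons and of lateral motor columns, had 58.6, 38.3 and 74.6 CPM on the main and 9.77 CPM on the pilot eGFP++ plates against 0 to 0.199 CPM (edgeR adjusted p = 0.0025; 0.105 with 1 sum per group and experiment). Wt1, a factor of a dorsal interneuron class and of mesoderm, had 17.1 to 61.4 CPM on Day 4 and 0 to 0.0647 CPM in eGFP++ (edgeR adjusted p = 0.00108). Prdm8 had 188.7, 179.4 and 136.6 CPM on the main and 67.5 CPM on the pilot eGFP++ plates against 0.0228 to 85.6 CPM and did not pass (edgeR adjusted p = 0.128). Sox14 had no read, Gata3 stood at 0 to 0.0611 CPM in eGFP++, and En1 and Pax2 at 0 to 6.51 CPM. Of 3 tested genes of mesoderm, blood and endothelium Tcf15, a factor of the paraxial mesoderm, rose, with 67.99 to 145.1 CPM against 0 to 5.18 CPM (edgeR adjusted p = 0.026, called in both fits). Of 6 neural crest and sensory genes Th and Ngfr, the low-affinity neurotrophin receptor, rose, the latter with 29.7 to 41.8 CPM against 0 to 0.398 CPM (edgeR adjusted p = 0.00801).

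Foxa2, of floor plate and endoderm, had 0 to 27.3 CPM on Day 4 and 0 to 0.129 CPM in eGFP++ and did not pass (edgeR adjusted p = 0.0509). Of 12 endoderm and extraembryonic genes 3 fell and 0 rose (6 and 0 unadjusted; DESeq2 5 and 0). These were Apoe, a lipoprotein, and the matrix genes Lamb1 and Sparc, all 3 in both fits, which other cell types also express. Krt8 and Krt18, epithelial keratins, stood at 3013 and 3039.6 CPM on plate TM013 of Day 4 and at most at 83.3 CPM on the other plates.

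Th, tyrosine hydroxylase, the first enzyme of catecholamine synthesis and listed here as a marker of crest and visceral neurons, rose with the motor neuron genes. It had 332.2, 408.7 and 603.5 CPM on the main and 326.04 CPM on the pilot eGFP++ plates, against 0.947, 0 and 0 CPM and 0 CPM on both pilot plates (log2 change 11.20 ± 1.33 SE; edgeR adjusted p = 0.00167, called in both fits). Reads of Th were in 67.02 to 70.2% of cells on the main and 43.6% on the pilot eGFP++ plates after thinning, and in 66.7% of the main Isl1 cells.

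Without plates RPI45 and RPI9 the counts of called genes were lower in most lists. Risen genes numbered 1 among the cholinergic genes, 1 each among the ion channel and the receptor and transporter genes, 6 among the synaptic, 4 among the axonal motor, 2 each among the guidance, neuronal RNA-binding and retinoic acid genes, and 0 among the proneural and Hox genes. Fallen genes numbered 3 of the S phase list, 1 each of the ribosomal and the progenitor RNA-binding lists and 0 of the endoderm list.

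Against unselected Day 6 cells (6 plates, 4 of the main and 2 of the pilot experiment), few genes were called. In a fit of all 3 groups edgeR called 0 of 12999 genes higher in eGFP++ (0%) and 28 lower (0.215%). At an unadjusted p under 0.05, 390 genes were higher and 1028 lower in that fit. The smallest adjusted p of a higher gene was 0.0501, and no other tool was run. A low count of calls from so few plates does not show that the groups are alike. Isl1 was 1.79 higher on the log2 scale and Slc18a3 1.90 higher without passing (edgeR adjusted p = 0.177 and 0.229). Isl1 stood at 24.7 to 261.9 CPM on the plates of unselected cells (unscaled). Both comparisons use the same eGFP++ plates, so a gene low on these plates tends to be low in both. Of the 28 lower genes 27 also fell against Day 4, where 3.43% of all tested genes fell. They include Sox2 (log2 change -3.49), Ccnd2 (-3.79), Cdh1 (-5.89) and Cyp26a1 (-4.01), and of the G2 and mitosis list 5 genes, among them Cdc20 (-2.06). The remaining gene, Pbk, a mitotic kinase, was lower than in unselected cells by a log2 change of -2.99 (edgeR adjusted p = 0.0404) and did not pass against Day 4 (adjusted p = 0.0791).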

How the data were processed

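The authors deposited 1 table of read counts per plate and gene (unit: counts); per the submitters' processing notes TopHat2 2.1.1, HTSeq 0.6.1 and mm10 were used, with no role or order stated. The 24092 entries of a table hold 23968 genes, 92 spike-ins, 5 summary lines (33.0% of the reads of both groups) and 27 names turned into dates, which were left out. The 40 columns of 1 further table match no sample and were not used. No 2 kept cells had the same counts; each well was sorted with 1 cell, and no doublet caller was run.

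Reads of cells with 500 or more genes were summed per plate and tested in edgeR 4.0.16 (R 4.3.3; TMM, filterByExpr, quasi-likelihood, experiment as a term, two-sided, 6 residual degrees of freedom; common dispersion 1.09; prior count 0.125 for fitted log2 changes and 2 for log2 CPM). Shares and depth were compared by exact permutation of plates within experiments. The alternatives were DESeq2 1.42.0, limma-voom 3.58.1 with an estimated correlation between plates (0.105), other scaling, filters, cell limits and left-out plates. Scripts were tested on simulated counts. Python 3.11.15 with scipy 1.17.1 was used for the shares.

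The members, lists and markers were chosen with earlier results of these data known. Named are Egfp, the markers, the 12 largest rises and falls (both fits, 50 CPM or more, plates not overlapping), and for each list up to 4 called members, 2 called against the majority and 2 of the highest level not called. Promoters are shown for the 3 called G2 and mitosis genes with TTTGAA and the smallest adjusted p. Pbk was named after its values were seen. Some genes that these rules name are not reported here.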

Additional observations from a re-analysis of the deposited data

Results flagged for a closer look

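For 8 genes of the text the change between eGFP++ and Day 4 differed in size between the main and the pilot experiment, by the interaction of group and experiment in edgeR (Benjamini-Hochberg over 11784 genes, 3.54% of which passed). The log2 difference of Stra8 was -13.57 on main and -3.89 on pilot plates (adjusted p = 0.0118). Elavl4, a neuronal RNA-binding protein, differed by 4.70 and 13.98 (0.0149), Myt1 by 5.47 and 12.99 (0.0171) and Neurog2, a proneural factor, by 0.82 and 8.75 (0.0195). The values of Apoe were -3.58 and -8.21 (0.0253), those of Ung -10.22 and -5.58 (0.0257), those of Tubb2b, a neuronal tubulin, 4.01 and 6.34 (0.0344) and those of Top2a -3.14 and -6.39 (0.0409). The direction was the same in both experiments for each of the 8. For Stra8, Myt1, Apoe, Ung, Tubb2b and Top2a the rule for a call had fixed this in advance. Elavl4 and Neurog2 were not called. The pilot experiment has 1 eGFP++ plate, and its Day 4 plates had fewer detected genes than its eGFP++ plate; the part of this in the differences was not tested.

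Isl1 also appeared in data outside the comparison. On the 1 plate labelled eGFP+, of the main experiment, it stood at 152.4 CPM (unscaled, 2531 reads), where the 3 main Day 4 plates had no read.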

How the results depend on the processing

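The share of genes called (7.32%), risen (3.89%) and fallen (3.43%), given in that order over the genes with an adjusted p, moved with the unit of replication, the plates and experiment used, the measure and the tool. The 3 shares were 1.68, 1.16 and 0.513% with 1 sum per group and experiment, 20.02, 9.82 and 10.2% with DESeq2, 2.77, 1.73 and 1.04% with cells of 2000 or more genes, 36.5, 18.7 and 17.8% of the fewer genes tested when cells with a read were counted, and 16.2, 8.25 and 7.98% in the main experiment alone. The pilot experiment alone gave 0.0778, 0.0778 and 0% (9 genes; 900 at an unadjusted p under 0.05). Leaving out plates RPI45 and RPI9, an alternative chosen after seeing the data, gave 1.55, 0.992 and 0.554%. Leaving out 1 plate at a time gave 3.16 to 9.83% called, 1.75 to 5.03% risen and 1.42 to 4.799% fallen. The number called moved by over 1.5 times without RPI29 (4.21%), RPI30 (3.89%), RPI45 (4.56%), RPI46 (3.90%), RPI47 (3.16%), RPI9 (3.89%) or TM014 (4.01%). The cause of these moves was not tested, except that settings with fewer plates or sums have fewer degrees of freedom. Risen genes made up 53.1% of the calls, 63.4% with voom, 69.4% with 1 sum per group and experiment and 62.4% with cells of 2000 or more genes. A call requires the same direction within both experiments, and the other fits use the same plate counts. Agreement in direction was thus largely set in advance and is no separate support. All 862 called genes kept their direction in the fit of 1 sum per group and experiment, in DESeq2 and in voom. With cells with a read counted, 532 of 544 did; Rpl13 (0.07), Rpl3 (0.05) and Rps2 (0.05) changed sign there, and nearly every cell has a read of such genes. The 16 marker shares past the threshold became 0 without thinning (17 at an unadjusted p under 0.05, smallest adjusted p 0.0556). They became 0 to 0 when any 1 plate was left out, with fewer arrangements (smallest adjusted p 0.0702 to 0.182). No paired analysis was possible because the labels number wells and not plates across groups. Each group has 1 to 3 plates an experiment, which limits the precision.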

Other observations

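Genes of sterol synthesis were higher in eGFP++ cells. This list was written after some members were seen among the risen genes, so its count has no test. Of 22 genes tested, 21 were higher in both experiments, as were 4235 of all 11784 tested genes. By edgeR 8 rose and 0 fell, 4 of them in both fits, and the median fitted log2 change was 2.09. Hmgcs1, which makes the precursor of mevalonate, had a mean of 3733 CPM on main and 6165 CPM on pilot eGFP++ plates against 330.5 and 999 CPM on Day 4 (log2 change 3.24 ± 0.30 SE; edgeR adjusted p = 0.000849). Fdft1, squalene synthase, rose by 2.78 ± 0.40, Sc4mol, a sterol demethylase, by 3.16 ± 0.46 and Cyp51, lanosterol demethylase, by 2.42 ± 0.49 (SE).

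The 4 Id genes, whose products block bHLH factors, did not move alike; they too were chosen after their values were seen. Id1 and Id3 fell by 4.91 ± 0.68 and 5.06 ± 0.55 (SE; edgeR adjusted p = 0.00331 and 0.00113). Id4 rose from a mean of 0.485 CPM on main and 0 CPM on pilot Day 4 plates to higher levels in both experiments, 335.9 CPM on the pilot plate (edgeR adjusted p = 0.00383), and Id2 was 0.77 lower without passing (adjusted p = 0.191).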
